A study of Mus musculus with 8 samples.

Results

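The genes described here encode the MAP kinase cascade and the dual-specificity phosphatases, in hearts of neonatal C57BL mice that were wildtype or null for connexin43. They are the genes whose symbol begins with Mapk, Map2k, Map3k, Map4k, Dusp followed by a digit, Rps6k, or Mknk followed by a digit, on probes with a single gene symbol. The array held 49 such genes on 99 probes, and 38 of them, on 68 probes, could be tested because they had measurements on 3 or more arrays in wildtype and 3 or more in null hearts, among 11804 features tested in all. Each genotype was measured on 4 arrays, and each array carried Cy3-labelled cDNA of a pool of 3 hearts beside a Cy5-labelled reference of adult C57BL tissues that was common to all arrays. The sources used here give neither the age in days nor the sex of the mice, nor how the null allele was made. Replicates are separate pools per the labels, so p-values measure the spread between pools and not between animals. In such whole-heart RNA, fewer cells of a type and less RNA per cell cannot be told apart.

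MAP kinases are switched on through a relay of kinases. A MAP4K or a small GTPase activates a MAP3K, the MAP3K phosphorylates a MAP2K, and the MAP2K phosphorylates the MAP kinase on a threonine and a tyrosine. The ERK branch is known for growth signals and the JNK and p38 branches for stress and cytokine signals, and all are active in heart muscle. Dual-specificity phosphatases of the DUSP family remove phosphate from both residues and so end the signal, and kinases such as MAPKAPK2, MNK, RSK and MSK carry it further. Control of the cascade acts largely through phosphorylation, which arrays do not measure: the values below are transcript levels only.

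The connexin43 gene, Gja1, had log2 ratios of 1.04, 1.31, 0.99 and 0.79 in wildtype and -0.29, 0.25, 0.12 and 0.22 in null hearts, with no overlap (difference -0.95, SE 0.15, adjusted p = 0.340 in limma, exact two-sided permutation p = 0.0286, the smallest that 8 arrays allow). Whether its single probe lies in the deleted part is not known here. Log2 ratios are given with the median of each array at 0, so 0 does not stand for an equal level in heart and reference. Arrays had values at 12971 to 23929 of 28704 spots, with the fewest on wildtype replicate 1, whose median rank correlation to the rest was 0.576, against at least 0.663 for every other array. It held a value for 31 of the 38 genes, against 36 to 38 on each other array. Of those 31 genes it was the highest wildtype array for 15 and the lowest for 5. Of 8 listed heart muscle markers 2 were measured, Myl7 and Pln, and their median log2 ratio was 0.72 to 1.41 on the 8 arrays. Both had lower means in null hearts, with summed linear ratios of 3.30 to 5.19 against 4.05 to 5.62 in wildtype. Markers of other cells of the heart were summed as linear ratios over those measured on all arrays. The sum over 4 fibroblast markers was 5.10 to 7.72 in wildtype and 6.29 to 8.02 in null hearts, and over 3 endothelial markers it was 4.01 to 5.30 and 4.43 to 5.09. Over 3 erythroid markers it was 2.19 to 4.41 and 3.56 to 4.25, and over 3 macrophage and neutrophil markers 1.62 to 2.66 and 1.60 to 2.11, while Cnn1 alone stood for smooth muscle (0.70 to 0.93 and 0.62 to 0.94). Differences in single markers ran one way for fibroblasts (0 of 5 measured markers lower in null), erythroid cells (0 of 4) and macrophages and neutrophils (4 of 4 lower). Their part in the differences given below was not tested.

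The comparison asked which genes of the cascade differ in transcript level when connexin43 is absent. Map3k1 had higher values in all null pools than in any wildtype pool, and Map3k14, Rps6ka6, Map4k4 and Map2k2 had lower values in all null pools measured. For Map3k1, Map4k4 and Map2k2 this order was that of the joined probes, and each had at least 1 probe on which the groups overlapped. At an adjusted p of 0.05 in limma 0 of the 38 genes were called, as were 0 of the 11804 features (0%), so none of the differences below is a call. At an unadjusted p under 0.05 stood 1 gene with a higher value, Map3k1, and 3 with lower values, Map3k14, Mapk10 and Rps6ka6. That is 2.63% and 7.89% of the 38 genes, close to the 2.10% and 6.13% of all features. Without centring of the arrays the split was 0 higher and 5 lower, Map3k1 no longer among them, and 28 higher and 1364 lower over all features, in place of 248 and 724. Groups without overlap were found for 1 gene in the higher and 4 in the lower direction (2.63% and 10.5%), against 2.00% and 5.54% of all features. The smallest adjusted p of the family was 0.553, and the median standard error of a difference was 0.12, against 0.14 over all features.

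Over the whole family, 25 of 38 genes had lower values in null hearts, 65.8% against 59.1% of all features, with a median log2 difference of -0.10 against -0.04. Without wildtype replicate 1 both medians were -0.04. The family's median was -0.05 without null replicate 3 and -0.04 with the probe of fewest missing values for each gene. Without centring of the arrays on their medians, 33 of the 38 had lower values and the median was -0.24, against -0.18 for all features. The differences ran from -0.48 for Rps6ka6 to 0.42 for Map2k6. By tier, the median was -0.13 for the 10 kinases upstream of the MAP kinases, 0.01 for the 7 MAP kinases, -0.22 for the 7 kinases downstream, -0.02 for the 6 scaffolds and partners and -0.09 for the 8 phosphatases. Without wildtype replicate 1 these medians were -0.04, -0.03, -0.09, 0.09 and -0.11 in the same order, so that those of the MAP kinases and of the scaffolds changed sign. The MAP kinase median was also -0.14 without centring, and the scaffold median 0.01 with quantile normalization, while without null replicate 3 the downstream median was -0.09.

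**Figure D1:**
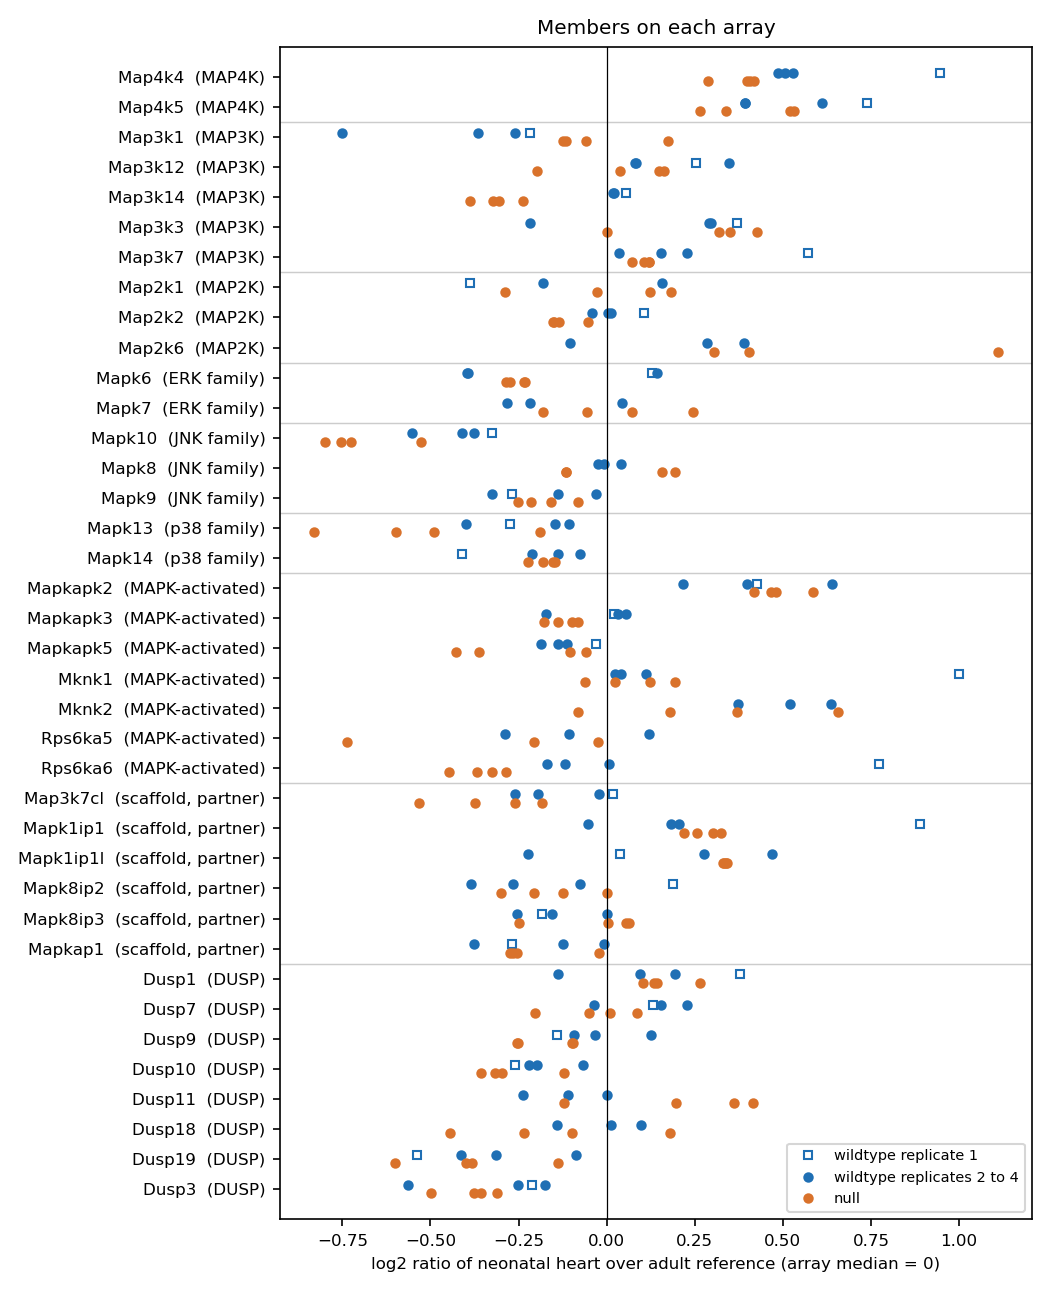
Log2 ratio of neonatal heart over adult reference (x axis, median of each array at 0) of the 38 measured genes by tier, with 1 point per array, wildtype in blue with replicate 1 as an open square and null in orange. Replicate 1 lies far to the right of the other wildtype arrays for Map4k4, Mknk1, Rps6ka6 and Mapk1ip1, and most genes show overlapping groups.

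At the top of the relay, both measured MAP4K genes had lower mean values in null hearts. Map4k4 encodes a kinase of the Ste20 type that feeds into JNK signalling. Its log2 ratios were 0.95, 0.49, 0.51 and 0.53 in wildtype replicates 1 to 4 and 0.41, 0.42, 0.29 and 0.40 in null replicates 1 to 4. The groups did not overlap, and wildtype replicate 1 stood far above the other arrays. The mean was 0.62 ± 0.22 in wildtype and 0.38 ± 0.06 in null hearts (SD, n = 4 each), a difference of -0.24 (SE 0.12, adjusted p = 0.613 in limma). It was -0.13 without wildtype replicate 1 and -0.40 without centring. Its 3 probes gave -0.14, -0.16 and -0.31. The groups overlapped on each of these probes, so their order held for the average only. Map4k5, a kinase of the same family, had a difference of -0.12 (95% interval -0.39 to 0.15), with 5 probes between -0.31 and 0.03, and was -0.05 without wildtype replicate 1 and -0.07 without null replicate 1. On all 8 arrays both genes had ratios above 0, as 19.1% of all features did on every array measured.

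Among MAP3K genes the 2 smallest p-values of the family ran in opposite directions. Map3k1 encodes MEKK1, which acts mainly ahead of JNK. It had log2 ratios of -0.22, -0.26, -0.36 and -0.75 in wildtype and -0.06, 0.17, -0.12 and -0.12 in null hearts. On wildtype replicate 1 the probe with a difference of 0.29 had no value and the other read -0.45. The -0.22 of that array is therefore a fitted value of the joined probes. All null values were above all wildtype values, and wildtype replicate 4 was lowest. Its mean was -0.40 ± 0.24 in wildtype and -0.03 ± 0.14 in null hearts (SD, n = 4 each). The difference of 0.37, or 1.29-fold, had an SE of 0.14 and an adjusted p = 0.564 in limma. It was 0.24 without wildtype replicate 4 and 0.21 without centring, and its 2 probes gave 0.48 and 0.29.

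Map3k14 encodes NIK, the kinase that starts the non-canonical NF-kB pathway rather than a MAP kinase relay. It read 0.05, 0.02 and 0.02 on wildtype replicates 1, 3 and 4, with no value on replicate 2, and -0.32, -0.39, -0.24 and -0.31 on the null arrays. The wildtype values lay close together and above every null value. Means were 0.03 ± 0.02 (SD, n = 3) and -0.31 ± 0.06 (SD, n = 4), a difference of -0.35 (SE 0.11, 1.27-fold, adjusted p = 0.553 in limma). Leaving out single arrays gave -0.37 to -0.32. The difference was -0.51 without centring and -0.28 with centring within blocks of rows. The gene had the smallest p-value of the family, rank 167 of all features, and rests on 1 probe.

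The other MAP3K genes had overlapping groups. Map3k7 encodes TAK1, which relays TGF-beta and cytokine signals, and had a difference of -0.14 (95% interval -0.42 to 0.13), with 0.57 on wildtype replicate 1 against 0.03 to 0.23 on the other wildtype arrays and 0.07 to 0.12 in null hearts. Without wildtype replicate 1 it was -0.03. Map3k3 encodes MEKK3, which acts ahead of ERK5, and had 0.09 (-0.24 to 0.42), with 0.38, -0.01 and -0.07 on its 3 probes, and ran from -0.04 without wildtype replicate 3 to 0.18 without null replicate 1. Map3k12 encodes DLK, a JNK activator best known from neurons, and had -0.15 (-0.42 to 0.11) with negative differences on all 4 probes, and -0.08 without null replicate 1.

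Of the 3 measured MAP2K genes, 2 had higher and 1 had lower mean values in null hearts. Map2k2 encodes MEK2, a kinase of the ERK branch, and had log2 ratios of 0.11, 0.00, 0.01 and -0.04 in wildtype and -0.15, -0.14, -0.15 and -0.05 in null hearts. Every null value lay below every wildtype value, though null replicate 4 lay only just below wildtype replicate 4. The difference was -0.14 (SE 0.10, adjusted p = 0.690 in limma), and -0.30 without centring. Its 2 probes gave -0.44 and 0.15, which was the widest gap between probes in the family, so the order of the groups held for the average and not for each probe. The related Map2k1, which encodes MEK1, had 0.13 on its 1 probe (95% interval -0.23 to 0.50) with overlapping groups. It was 0.01 without wildtype replicate 1 and 0.28 without wildtype replicate 2.

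Map2k6 encodes MKK6, an activator of p38. It read 0.29, -0.10 and 0.39 on wildtype replicates 2 to 4 and 0.41, 1.11 and 0.30 on null replicates 2 to 4, and had no value on either replicate 1. Null replicate 3 stood far above the rest and the groups overlapped. Means were 0.19 ± 0.26 in wildtype and 0.61 ± 0.44 in null hearts (SD, n = 3 each). The difference of 0.42 (SE 0.23, adjusted p = 0.628 in limma) became 0.16 without null replicate 3 and 0.27 without wildtype replicate 3.

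Of the MAP kinases themselves, 4 had higher and 3 had lower mean values in null hearts. The ERK family was represented by 2 genes. Mapk6, which encodes ERK3, had a difference of -0.13 (95% interval -0.45 to 0.19), with wildtype values of 0.13, -0.39, -0.40 and 0.14 on either side of the null values of -0.29 to -0.23. It was -0.04 without wildtype replicate 1, -0.04 without wildtype replicate 4 and -0.21 without wildtype replicate 2 and -0.22 without wildtype replicate 3. Mapk7, which encodes ERK5, a kinase needed for heart and vessel development, had 0.17 (-0.14 to 0.49) with 3 wildtype arrays, and 0.10 without null replicate 3 to 0.27 without wildtype replicate 2.

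Of the JNK genes, the ubiquitous members were near 0. Mapk8, JNK1, read -0.01, -0.02 and 0.04 on wildtype replicates 2 to 4 and 0.16, -0.11, 0.19 and -0.12 on the null arrays. The null values lay on both sides of the wildtype values. Its difference was 0.03 (95% interval -0.25 to 0.31, adjusted p = 0.962 in limma), with 0.18 and -0.12 on its 2 probes. Mapk9, JNK2, read -0.27, -0.03, -0.14 and -0.33 in wildtype and -0.08, -0.25, -0.21 and -0.16 in null hearts, with full overlap. The difference was 0.01 (95% interval -0.22 to 0.25, adjusted p = 0.973 in limma). These intervals leave room for differences of either sign, and both genes had differences of either sign when single arrays were left out.

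Mapk10, JNK3, whose expression is known mainly from brain, heart and testis, stood apart from them. It read -0.33, -0.38, -0.41 and -0.55 in wildtype and -0.73, -0.75, -0.80 and -0.53 in null hearts. All arrays had ratios below 0, and 3 null arrays lay below every wildtype array, while null replicate 4 lay just above wildtype replicate 4. Means were -0.42 ± 0.10 and -0.70 ± 0.12 (SD, n = 4 each). On its 1 probe the difference of -0.28, or 1.22-fold, had an SE of 0.11 and an adjusted p = 0.565 in limma. Leaving out single arrays gave -0.34 to -0.25, and no centring gave -0.44.

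Of the p38 genes, Mapk14, which encodes the widely expressed p38 alpha, read -0.41, -0.14, -0.08 and -0.21 in wildtype and -0.18, -0.15, -0.15 and -0.22 in null hearts. The null values lay inside the wildtype range, and the difference was 0.03 (95% interval -0.20 to 0.27, adjusted p = 0.943 in limma), and -0.03 without wildtype replicate 1. Mapk13, p38 delta, read -0.27, -0.15, -0.11 and -0.40 in wildtype and -0.19, -0.60, -0.83 and -0.49 in null hearts. Null replicates 2 to 4 were lower than every wildtype array and null replicate 1 was not. The difference was -0.30 (SE 0.14, adjusted p = 0.597 in limma), and -0.45 without centring. Its 2 probes gave -0.13 and -0.50, with mean log2 ratios of -0.05 and -0.73 relative to the array medians. On wildtype replicate 1 the second of these probes had no value and the first read 0.06. The -0.27 of that array is therefore a fitted value of the joined probes. Without centring of the arrays the differences of Mapk8, Mapk9 and Mapk14 turned negative, as did those of Dusp1, Map2k1, Map3k3, Mapk8ip3 and Mapkapk2.

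**Figure D2:**
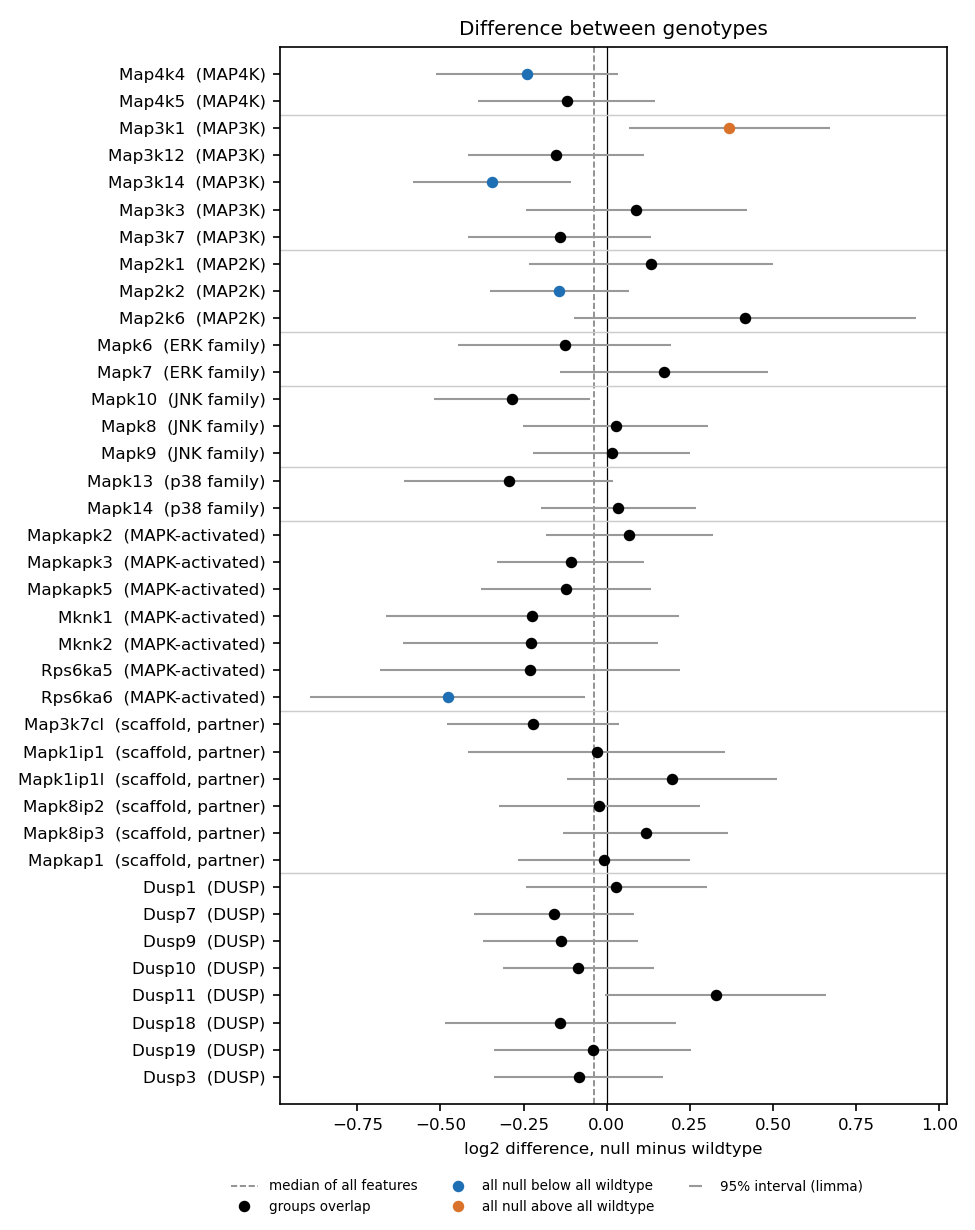
Log2 difference between null and wildtype hearts (x axis) for the 38 measured genes by tier, with 95% intervals from limma before any adjustment and the median of all features, -0.04, as a dashed line. Blue marks the 4 genes whose null values all lay below wildtype and orange the 1 gene, Map3k1, whose null values all lay above.

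Downstream of the MAP kinases, 6 of 7 measured kinases had lower mean values in null hearts. Rps6ka6 encodes RSK4, a member of the RSK family, whose kinases act downstream of ERK. It had log2 ratios of 0.77, 0.01, -0.17 and -0.12 in wildtype and -0.37, -0.33, -0.45 and -0.29 in null hearts. No values overlapped, and replicate 1 stood far above the other wildtype arrays. The means were 0.12 ± 0.44 and -0.36 ± 0.07 (SD, n = 4 each). The difference of -0.48, or 1.39-fold, had an SE of 0.19 and an adjusted p = 0.568 in limma. It was -0.26 without wildtype replicate 1, still with no overlap among the remaining arrays. The gene rests on 1 probe of the 2 on the array.

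Mknk1 and Mknk2 encode the MNK kinases, which phosphorylate the translation factor eIF4E, and had differences of -0.22 (95% interval -0.66 to 0.22) and -0.23 (-0.61 to 0.15). For Mknk1, wildtype replicate 1 read 1.00, while the other wildtype arrays read 0.02 to 0.11 and the null arrays -0.06 to 0.19. Without that array the difference of Mknk1 was 0.01, of the opposite sign. For Mknk2 it was -0.11 without null replicate 3 and -0.35 without null replicate 2. Rps6ka5, which encodes the chromatin and CREB kinase MSK1, had -0.23 (-0.68 to 0.22) over 3 arrays of each genotype, with -0.74 on null replicate 3. Without that array it was -0.02, without wildtype replicate 2 -0.12 and without null replicate 4 -0.38. The p38 target kinases had smaller differences, 0.07 for Mapkapk2 (-0.18 to 0.32), -0.11 for Mapkapk3 (-0.33 to 0.11) and -0.12 for Mapkapk5 (-0.38 to 0.13). Leaving out single arrays gave 0.00 for Mapkapk2 without wildtype replicate 3 and 0.14 without wildtype replicate 4, -0.17 for Mapkapk3 without wildtype replicate 4 and -0.06 for Mapkapk5 without null replicate 2. Mapkapk2, which controls the stability of inflammatory mRNAs, had ratios above 0 on all arrays, from 0.22 to 0.64.

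Among the 6 scaffolds and partners, 4 had lower mean values in null hearts. Map3k7cl, a gene of unsettled function named for its likeness to the end of TAK1, had the smallest p-value among them. It read 0.02, -0.20, -0.02 and -0.26 in wildtype and -0.18, -0.37, -0.53 and -0.26 in null hearts, with overlap. The difference was -0.22 (SE 0.12, adjusted p = 0.618 in limma) and without centring -0.38. The JNK scaffold genes Mapk8ip2 and Mapk8ip3 had -0.02 (95% interval -0.33 to 0.28) and 0.12 (-0.13 to 0.37). Mapk8ip2 ran from -0.11 without wildtype replicate 4 to 0.08 without wildtype replicate 1, and Mapk8ip3 reached 0.19 without null replicate 3. Mapkap1, which encodes the mTORC2 subunit SIN1 and belongs here by its name alone, had -0.01 (-0.27 to 0.25), and -0.07 to 0.05 with single arrays left out. Mapk1ip1 had -0.03 (-0.42 to 0.36), with 0.89 on wildtype replicate 1, and 0.16 without that array. For Mapk1ip1l, with a difference of 0.20 (-0.12 to 0.51), the null arrays read 0.33 to 0.34 while wildtype arrays ran from -0.22 to 0.47, and the difference was 0.06 without wildtype replicate 3 and 0.31 without wildtype replicate 4.

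Of the 8 measured phosphatase genes, 6 had lower mean values in null hearts. Dusp1, the inducible nuclear phosphatase MKP1 and an immediate early gene, read 0.38, 0.09, 0.19 and -0.14 in wildtype and 0.14, 0.13, 0.27 and 0.10 in null hearts. The null values lay inside the wildtype range. Its difference was 0.03 (95% interval -0.24 to 0.30, adjusted p = 0.958 in limma), and it was 0.11 without wildtype replicate 1 and -0.06 without wildtype replicate 4. Dusp7 and Dusp9, which encode cytoplasmic phosphatases that prefer ERK, had -0.16 (-0.40 to 0.08) and -0.14 (-0.37 to 0.09), and Dusp9 -0.08 without wildtype replicate 4. The JNK and p38 phosphatase gene Dusp10 had -0.09 (-0.31 to 0.14), with ratios below 0 on all arrays, and ran from -0.14 without null replicate 1 to -0.05 without wildtype replicate 3.

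Among atypical phosphatases, Dusp11, whose product acts on the phosphates of RNA 5′ ends, had the largest difference. It read 0.00, -0.24 and -0.11 on wildtype replicates 2 to 4 and -0.12, 0.36, 0.42 and 0.20 on the null arrays. Null replicates 2 to 4 were above every wildtype array and null replicate 1 was not. Means were -0.11 ± 0.12 (SD, n = 3) and 0.21 ± 0.24 (SD, n = 4), a difference of 0.33 (SE 0.15, 1.25-fold, adjusted p = 0.594 in limma). It rests on 1 of 3 probes, and with probes measured on only 2 arrays of a genotype included it was 0.12. Dusp3, the small phosphatase VHR, had -0.08 (-0.34 to 0.17), Dusp18 -0.14 (-0.49 to 0.21) and Dusp19 -0.04 (-0.34 to 0.25). With single arrays left out these ran from -0.17 to -0.04 for Dusp3 (lowest without wildtype replicate 3, highest without wildtype replicate 4). They ran from -0.25 to -0.04 for Dusp18 (without null replicate 4 and without null replicate 1), and from -0.12 to 0.04 for Dusp19 (without null replicate 1 and without wildtype replicate 2).

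**Figure D3:**
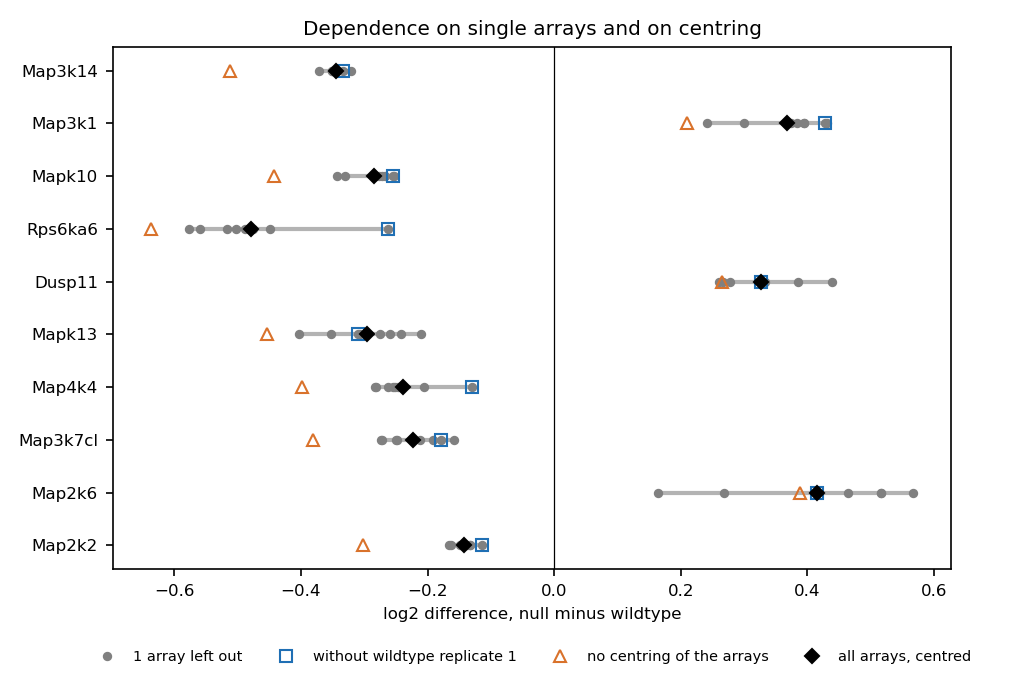
Log2 difference between null and wildtype hearts (x axis) of the 10 genes with the smallest p-values, with all 8 arrays (black), with each array left out (grey), without wildtype replicate 1 (blue squares) and without centring of the arrays (orange triangles). All 10 kept their sign, which is likely for genes chosen by small p in the same fit. Rps6ka6 went from -0.48 to -0.26 and Map4k4 from -0.24 to -0.13 without wildtype replicate 1. Map2k6 reached 0.16 with 1 array left out.

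Probes of a gene gave a second view of each difference. Of 21 genes with several probes, 12 had the same sign on all of them and 9 had mixed signs, and the median range between their probes was 0.21. The median size of a difference over all 38 genes, those with a single probe included, was 0.14. A range grows with the number of probes, so the 2 medians are not like measures. Map3k1, Map4k4, Map3k12, Mapk6, Mapk13 and Mapk1ip1l were among those with 1 sign. Mapk6 gave -0.13 and -0.12, and Dusp3 -0.09 and -0.08. Mixed signs were found for Map2k2, Mapk8, Mapk9 and Mapk14, among others. Map3k14, Mapk10, Rps6ka6, Dusp11, Map2k6 and Map3k7cl rest on a single probe, so that 6 of the 10 genes with the smallest p-values had no such comparison.

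**Figure D4:**
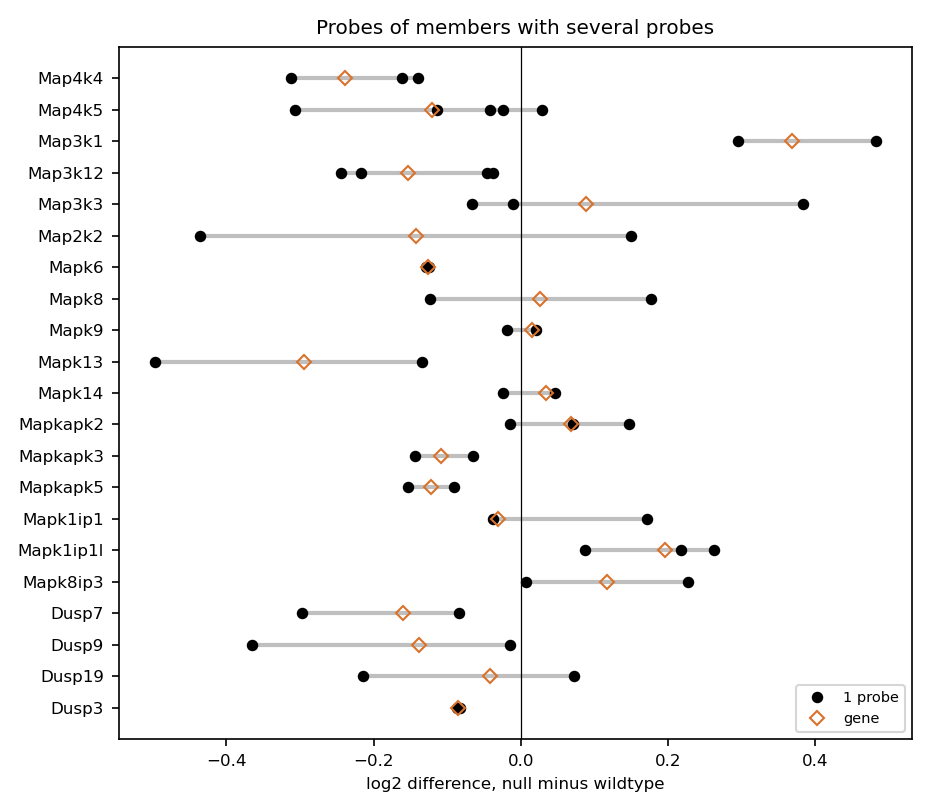
Log2 difference between null and wildtype hearts (x axis) on each probe (black) of the 21 genes with several probes, with the gene's value from the fit of probe and array effects (orange). Probes can cover different arrays, so the gene's value need not be their mean, and the widest gap is that of Map2k2, -0.44 and 0.15.

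Against the adult reference, with array medians at 0, 4 of 38 genes had ratios above 0 on every array measured. They were Map4k4, Map4k5, Map3k7 and Mapkapk2, a share of 10.5% against 19.1% of all features. The deposited medians ran from -0.34 on null replicate 1 to 0.21 on wildtype replicate 1. A value of 0 is therefore the median spot and not an equal level in heart and reference, and these signs hold for centred values only. Ratios below 0 on every array were found for 9 genes, 23.7% against 17.6%. These were Mapk9, Mapk10, Mapk13, Mapk14, Mapkapk5, Mapkap1, Dusp3, Dusp10 and Dusp19, and 4 of them are MAP kinases out of 7 measured. Both lists hold for joined probes. Single probes of Mapk13, Mapkapk5 and Dusp19, among others, were above 0 on some arrays, and single probes of Map4k5 were below 0 on some. Relative to the array median, the mean ratio of heart over reference was 0.679 for Mapk10 and 1.41 for Map4k4. Dyes were not swapped on any array, so dye bias stays in these ratios. It cancels between genotypes only where it was alike on all arrays, which was not tested.

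The remaining 11 genes had too few values for a test, and on wildtype replicate 1 only Dusp26 and Dusp28 among them had a value. Map2k4, the activator of JNK and p38, had 0.67 on wildtype replicate 4 and -0.13, 0.54, 1.07 and 0.65 on the null arrays. Map2k3, an activator of p38, had 0.14 and 0.46 on wildtype replicates 2 and 4 and 0.14 to 0.41 on the null arrays. Map4k1, known from blood cells, had -0.17 and -0.09 on wildtype replicates 2 and 4 and -0.58 to -0.29 on the null arrays. Dusp16, a JNK phosphatase, had 0.55, 0.37 and 0.35 on wildtype replicates 2 to 4 and 0.31 and -0.05 on null replicates 2 and 3. Dusp14 had -0.15, -0.81 and -0.88 on wildtype replicates 2 to 4 and -0.31 on null replicate 3. Dusp26 had 0.21, -0.65, -0.64 and -0.85 in wildtype and 1.17 on null replicate 1 alone. Rps6kc1 read 0.24 and -0.13 on wildtype replicates 2 and 4 and -0.58 to 0.00 on the null arrays. Mapkbp1 had 0.00 on wildtype replicate 2 and -0.28 to 0.13 on the null arrays. Rps6ka3, which encodes RSK2, had 0.21 and 0.16 on wildtype replicates 2 and 4 and 0.63 on null replicate 3. Map3k11 and Dusp28 had 1 value each.

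Genes that feed the cascade or respond to it were taken from a list of 65, of which 35 were measured: receptors, adaptors, Ras and Raf genes, inhibitors and transcriptional targets. At an adjusted p of 0.05 in limma 0 of them were called. At an unadjusted p under 0.05 stood 2 of 35 with higher and 3 with lower values, where the shares over all features were 2.10% and 6.13%. The median difference was -0.05, against -0.04 over all features. Groups without overlap were those of Ier3 and Araf, both with higher values in null hearts, and 0 of 35 were lower, where the shares over all features were 2.00% and 5.54%. By role, lower values were found for 3 of 6 receptors, 2 of 6 adaptors and Ras activators, 5 of 8 Ras and Raf genes, 2 of 5 inhibitors and 8 of 10 targets.

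Ier3, an early response gene of ERK and NF-kB signalling, had the smallest p-value of these. It read 0.39, 0.57, -0.00 and -0.50 in wildtype and 0.60, 0.92, 0.73 and 0.71 in null hearts, with no overlap (difference 0.62, SE 0.20, adjusted p = 0.553 in limma). The difference was 0.42 without wildtype replicate 4. Myc, a target that ERK signalling raises, read 0.65, 0.30, 0.25 and 0.57 in wildtype and 0.26, 0.05, 0.18 and 0.12 in null hearts, with an overlap of 1 pair (difference -0.29, SE 0.12, adjusted p = 0.588 in limma). It was -0.44 without centring. Pdgfrb, which encodes a receptor for platelet-derived growth factor, read 0.61, 0.48, 0.31 and 0.09 in wildtype and 0.59, 0.83, 0.89 and 0.52 in null hearts, with overlap through wildtype replicate 1 (difference 0.34, SE 0.14, adjusted p = 0.588 in limma). It was 0.18 without centring. Erbb3, which encodes a receptor for neuregulin, read 0.03, -0.40, -0.18 and -0.62 in wildtype and -0.90, -0.43, -0.76 and -0.63 in null hearts, with overlap (difference -0.39, SE 0.16, adjusted p = 0.568 in limma). It was -0.19 with array weights. Fos and Jun, the immediate early genes read most often as output of the cascade, had -0.03 (95% interval of Fos -0.28 to 0.21) and -0.05.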

How the data were processed

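Dual-colour cDNA arrays of 4 wildtype and 4 connexin43 null heart pools were analysed from the table of log2 ratios that the authors deposited. For scanner software, background correction, spot filter and scaling the sources used here give nothing. Base 2 was taken from the values: differences between spots of a block of 598 rows equalled logs of whole-number ratios (at most 120, tolerance 1.5e-09) in 7497 of 30866033 pairs with base 2, 266 with base e and 795 with base 10. Heart was taken as numerator because Myl7 and Pln had medians of 0.72 to 1.41 and 8 genes of other adult tissues -2.25 to -1.37 on every array. Of 28704 probes 18511 had 1 gene symbol in the platform annotation, which can be old. All 49 family genes matched the GRCm38.p6 gene table. Arrays were set to a median of 0, and a gene's probes were joined in an additive model (probe plus array). Features needed values on at least 3 arrays per genotype (missing values stay missing). Where only some probes of a gene had a value on an array, the gene's value there was fitted from those probes.

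The whole table was fitted with limma 3.58.1 (R 4.3.3) lmFit and eBayes, Benjamini-Hochberg over 11804 features, threshold 0.05. The code was first checked on data simulated with shifts larger than any difference of the family, so that check does not bear on the power for these genes. Figures used Python 3.11.15 and matplotlib 3.10.9. The genes, tiers, lists and alternatives were chosen with earlier results of these data known. Named with full values were the 10 genes of smallest p, genes without overlap, Mapk8, Mapk9, Mapk14 and Dusp1, and 4 genes of the pathway list. The number of arrays limits the precision. Numbers 1 to 4 occur in both genotypes, but deviations of same-numbered arrays correlated at -0.25 to -0.01, so no pairing was used.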

Additional observations from a re-analysis of the deposited data

Results flagged for a closer look

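The wildtype replicate 1 value of Map4k4 was 0.95, far from the 0.49 to 0.53 of wildtype replicates 2 to 4, and was singled out by the size of that gap within its group's range. Its null replicate 3 read 0.29, against 0.40 to 0.42 on the other null arrays. For Map2k2, null replicate 4 had -0.052 and the other null arrays -0.15 to -0.14. These 3 came from 25 groups of 4 arrays over 15 genes, and chance sets off about 1 group in 20.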

How the results depend on the processing

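The number of features called and of family genes called was 0 under all 18 alternatives, with 614 to 1392 features at an unadjusted p under 0.05 against 972. All 10 family genes of smallest p, where measured, and Gja1 kept their sign under each alternative. The 10 were chosen for small p in the same fit, which makes a kept sign likely. Other family genes, Mapk8, Mapk9 and Dusp1 among them, changed sign when single arrays were left out. The family's median difference moved from -0.10 to -0.24 without centring, when that of all features was -0.18. With values required on all 4 arrays of each group, 614 features stood at an unadjusted p under 0.05, over the fewer features tested. Family genes at that level numbered 2 to 6 with an array left out, against 4, and 2 without null replicate 2 and without null replicate 3. With the replicate number as a block (replicate block), 3 family genes stood there, and 728 features. With quantile normalization 2 family genes changed sign, with equal spread 1, with centring within blocks of rows 1, with the replicate block 1, with the probe of fewest missing values 3 and without centring 8. Fits with an array left out kept the same probes. The cause of these shifts was not tested.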
